A study of Mus musculus with 4 samples.

Results

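C1q macrophages were taken here as the cell barcodes with at least 3 UMIs over C1qa, C1qb and C1qc, fewer than 3 over Fn1 and Retnla, none over Cd3d, Cd3e and Cd3g, and fewer than 3 of Cpa3. A UMI is a molecular tag that counts 1 captured RNA molecule. The rule found 212 members among 14378 barcodes in 4 libraries. The stomach library gave 173 of them, the small intestine 22, the cecum 4 and the colon 13. The members were chosen by the UMI counts of these genes in the same cells, so the levels of its own genes describe how the members were chosen and are no finding.

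C1q is the recognition part of the classical complement pathway. It is built of chains encoded by C1qa, C1qb and C1qc, and tissue macrophages are a main source of it. Gut macrophages are largely replaced from blood monocytes, which lose Ly6c2 and Ccr2 and gain Cx3cr1, MHC class II and C1q as they mature under TGF-beta and IL-10. They take up dying cells and microbes, degrade them in lysosomes and export the lipid through apolipoprotein E.

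The series profiled leukocytes of the epithelial layer of the gut of uninfected C57BL/6 mice, with 1 10x Genomics 3′ library each from stomach, small intestine, cecum and colon. All 4 were sorted as live CD45+ cells and the protocol names CD45.2 as the sort marker. The protocol text is the same in every record and names the colon as the tissue of extraction, so the tissue of each library was taken from its tissue label. Age and sex are not given in the sources used here. With 1 library per tissue, no difference between tissues has a replicate check, no p-value is given, and tissue, animal and library cannot be told apart. Where 4 values follow each other without names, their order is stomach, small intestine, cecum, colon. All intervals below are 95% exact intervals and cover counting error only. Those of gene levels and gene ratios treat each UMI as an independent draw, so they leave out the spread between cells.

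The libraries held 3171 to 4244 barcodes with median depths of 1707 to 2983 UMIs. Members were deeper, with medians of 4493, 3175.5, 3766.5 and 6900 UMIs. Across pairs of libraries 23 barcode sequences were shared, of which 1 was a member in one library and 0 were members in both. No doublet caller was run. The rule left out barcodes with a Cd3 UMI or with 3 or more Cpa3 UMIs, but other T cell and mast cell transcripts were still seen in members, as given below. Leaving out members with 2 or more UMIs over Cd79a, Cd79b, Ncr1, Nkg7 and Epcam kept 167 of 173 stomach members. C1qb was listed in the stomach table only, with 25 UMIs in members, so the rule rested on C1qa and C1qc.

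The cut on C1q fell in a sparse range. Of the 212 members, 196 had 10 or more C1q UMIs and 6 had 3 to 5, while 98 barcodes outside the rule had 1 or 2, and 9 of those had 2. The median C1q UMIs per member were 61, 28, 36.5 and 42. Of 280 barcodes with at least 3 C1q UMIs, 68 were left out, 45 for Fn1 or Retnla, 18 for Cd3 and 11 for Cpa3, some on more than 1 count. Barcodes of another lineage give the background. Among barcodes with 3 or more Cd3 UMIs, called Cd3 barcodes below, 3.93% of 280 in stomach had a C1q UMI at a median depth of 2611.5 UMIs. In the other libraries that share was 0.159% of 2517, 0.177% of 3384 and 0.179% of 3358, at medians of 2342, 1777 and 3033 UMIs.

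**Figure D1:**
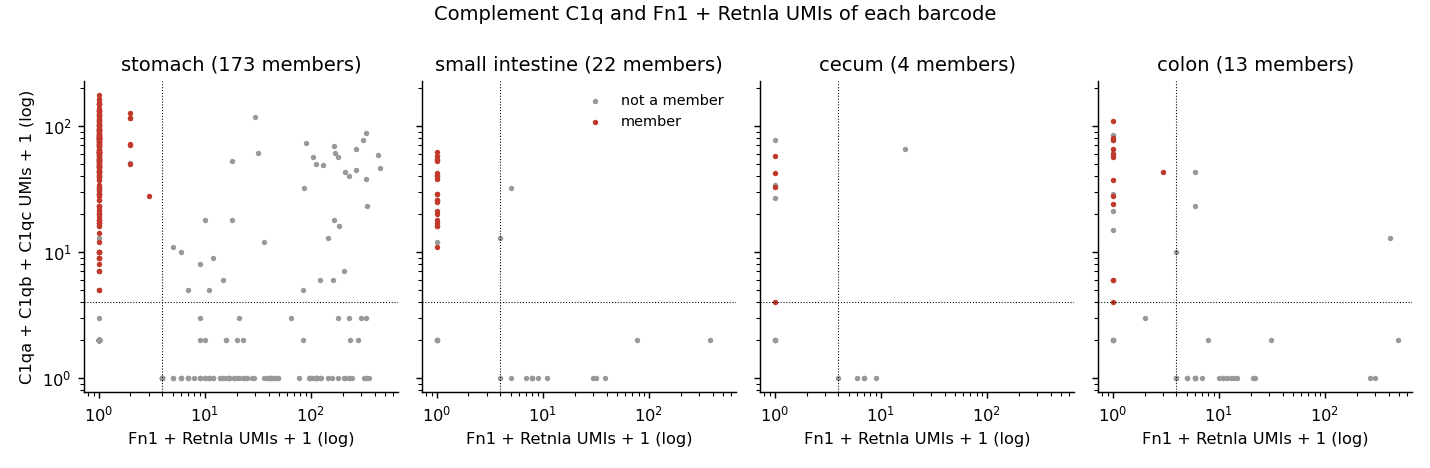
C1q UMIs (C1qa, C1qb and C1qc summed, plus 1, log axis) against Fn1 and Retnla UMIs (plus 1, log axis) of each barcode with a C1q UMI or at least 3 Fn1 and Retnla UMIs, by library. Red points are members and dotted lines mark the limits of 3 UMIs; most of the 173 stomach members lie far above the limit, with a median of 61 C1q UMIs.

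Marker genes outside the rule were detected in most members, with Trem2 as the exception outside the stomach. CPM below means the UMIs of a gene per 1000000 UMIs summed over the members of a library. Apoe, which carries lipid out of macrophages, had a UMI in 97.7%, 100%, 100% and 92.3% of members. Csf1r, the receptor for the macrophage growth factor, had a UMI in 93.6%, 95.5%, 100% and 100%. Ms4a7, a membrane protein of tissue macrophages, had one in 92.5%, 95.5%, 75.0% and 69.2%. Trem2, a lipid-sensing receptor, had a UMI in 80.9% of stomach members but in 27.3%, 0 of 4 and 23.1% elsewhere.

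Markers of lymphoid, plasma, mast and epithelial cells were low, and the dendritic cell list was higher. The 12 T cell markers summed to 22.6 CPM in stomach members, with 7 of the 12 at 0, and to 80.6, 0 and 23.1 CPM elsewhere. The Cd3 genes among them were at 0 by the rule. The 11 mast cell markers summed to 230 CPM in stomach members, where 62.4% had at least 1 UMI, and to 67.2, 0 and 0 CPM in the other libraries. Stomach held 1805 barcodes with 3 or more Cpa3 UMIs, and the other libraries 61, 15 and 2. The 10 B cell markers summed to 86.7, 134, 0 and 69.2 CPM and the 12 NK and ILC markers to 136, 148, 0 and 23.1 CPM. The epithelial markers summed to 167, 121, 0 and 23.1 CPM. The 7 plasma cell markers summed to 124, 322, 147 and 138 CPM. The 21 dendritic cell markers summed to 1455, 1867, 2063 and 2042 CPM, with at least 1 UMI in 97.7%, 100%, 100% and 100% of members. In stomach members Irf8, Sirpa and Itgax stood at 484, 328 and 237 CPM and Batf3 at 55.3 CPM. Flt3, Clec9a and Cd209a stood at 2.51, 5.03 and 10.1 CPM there. That share counts a UMI of any gene of the list, so it does not show transcripts particular to dendritic cells in nearly all members. How much of the results below these transcripts account for was not tested.

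C1qa, C1qb and C1qc are neighbours on the minus strand of chromosome 4 (GRCm38, GENCODE M21), C1qb at chr4:136880129-136886187, C1qc at chr4:136889804-136893065 and C1qa at chr4:136895917-136898803. The macrophage transcription factor PU.1, encoded by Spi1, binds sites built on a GGAA core. Spi1 stood at 481, 578, 663 and 600 CPM, and its intestinal and stomach levels differed by 1.24-fold (0.986 to 1.54). The extended core GGAAGT, read on both strands (reverse complement ACTTCC) with no other motif searched, lay within 250 bases before the start in 19.7% of 32851 RefSeq promoter windows. Of 27 macrophage identity genes 17 matched that table, and 6 of them (35.3%) held it, against 22.2% of all 27025 genes in the table. Members of that list with the motif just before the start are shown here for their place in the results below, 100 bases each from the RefSeq table of GRCm38.p6, on the minus strand, read 5′ to 3′, with the motif in capitals. The stretch before Ms4a7 is chr19:11336147-11336246 and that before Fcgr1 is chr3:96293970-96294069. A match of letters is no evidence of binding.
Ms4a7: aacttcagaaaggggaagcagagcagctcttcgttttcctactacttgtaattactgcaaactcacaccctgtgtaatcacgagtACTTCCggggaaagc
Fcgr1: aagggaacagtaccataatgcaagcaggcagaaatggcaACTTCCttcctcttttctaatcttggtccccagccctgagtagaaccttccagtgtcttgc

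C1q macrophages were most frequent in the stomach library and rarest in cecum. They made up 5.41% of stomach barcodes (4.65 to 6.25), 0.694% of those of the small intestine (0.435 to 1.05), 0.0943% of cecum barcodes (0.0257 to 0.241) and 0.345% of colon barcodes (0.184 to 0.590). The stomach share was 7.79-fold that of small intestine (4.99 to 12.8), 15.7-fold that of colon (8.92 to 30.0) and 57.4-fold that of cecum (22.0 to 213). The intervals of small intestine and colon overlapped, and so did those of colon and cecum. These are shares of sorted leukocytes, and the Cd3 barcodes that filled the other libraries were 280 of 3199 in stomach. Against the other phagocytes of the same library, the barcodes with 3 or more UMIs over Fn1 and Retnla and the same limits on Cd3 and Cpa3 (Fn1 and Retnla cells below), the order was different. These cells were not free of C1q, since 32 of 108 in stomach had 3 or more C1q UMIs. In the other libraries 2 of 13, 1 of 4 and 4 of 24 did. Of both sets together, members were 61.6% in stomach (55.6 to 67.3), 62.9% in the small intestine (44.9 to 78.5), 4 of 8 for cecum (15.7% to 84.3%) and 35.1% for colon (20.2 to 52.5). The stomach and colon intervals did not overlap, and those of the other libraries overlapped both.

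Of the markers outside the rule, Apoe and Ms4a7 fell in the same order over the libraries and Csf1r did not. Apoe stood at 34867, 31646, 14659 and 10927 CPM, so that stomach and small intestine were high and cecum and colon low. Ms4a7 fell in the same order, at 2483, 1746, 1031 and 785 CPM. Over the summed intestinal libraries Apoe was 1.74-fold higher in stomach (1.68 to 1.80) and Ms4a7 2.05-fold (1.77 to 2.37), and without the colon library the log2 ratio of Ms4a7 was 0.60, under the 2-fold limit. It also fell under it when the rule followed thinning (0.86). Without the small intestine library Apoe passed that limit (1.61). Csf1r stood at 1235, 1948, 1547 and 935 CPM. The genes of the rule, given as a description only, were C1qa at 8575, 5870, 6114 and 4269 CPM and C1qc at 5350, 3734, 3683 and 2469 CPM.

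Surface and lysosomal molecules of mature macrophages did not share 1 order. Cx3cr1, the fractalkine receptor of gut macrophages, was level across libraries at 701, 497, 663 and 727 CPM, a ratio of 1.12 (0.914 to 1.39). Adgre1, which encodes F4/80, stood at 467, 349, 295 and 312 CPM, and the lysosomal glycoprotein gene Cd68 at 807, 685, 810 and 577 CPM. Cd14, the lipopolysaccharide co-receptor, was highest in stomach at 1309 CPM, against 524, 221 and 196, a 3.88-fold difference over the summed intestine (2.98 to 5.13), and its log2 ratio was 2.71 without small intestine.

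**Figure D2:**
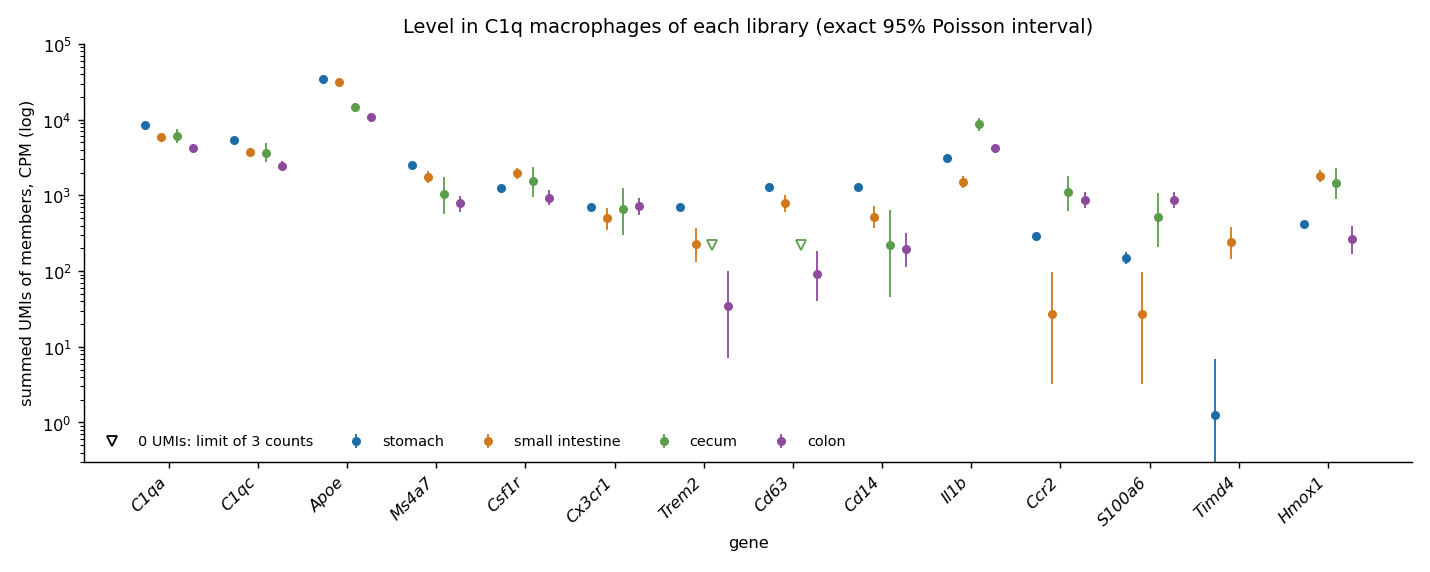
Level of 14 genes in C1q macrophages of each library, as summed UMIs in CPM on a log axis with exact 95% Poisson intervals; open triangles mark 0 UMIs of a listed gene at the limit of 3 counts, and a gene not listed in a library has no point. Apoe, Ms4a7, Trem2 and Cd14 are highest in stomach, and Ccr2 is lowest in small intestine.

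For the comparison of stomach with the summed intestinal libraries, a gene was tested when it was listed in all 4 libraries and reached 50 CPM on either side and 20 UMIs in all, and it was called at 2-fold or more with the interval of the ratio off 1. Of 3698 genes tested, 162 were called higher in stomach members (4.38%) and 371 lower (10.0%), and the median log2 ratio over all genes tested was -0.08. The stomach side held 795943 UMIs and the intestinal side 174690. With the 3 intestinal libraries weighted equally, 3813 genes were tested, of which 266 were higher and 518 lower. When a gene also had to exceed the ratio among Cd3 barcodes by 2-fold, an alternative chosen after seeing the data, 91 were higher and 174 lower. Of the called genes, 144 of 162 were higher than in each of the 3 libraries and 241 of 371 were lower than in each. The same ratio among Cd3 barcodes called 25 of the 162 (15.4%) and 103 of the 371 (27.8%) in the same direction, so those genes differed among Cd3 barcodes too. The share of all 3698 genes called among Cd3 barcodes is not given here. Whether these overlaps exceed it was therefore not tested.

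Among the genes highest in stomach members by ratio were the lipid-phagocyte genes Trem2 and Spp1. Trem2 stood at 696, 228, 0 and 34.6 CPM, from 554, 17, 0 and 3 UMIs, where a count of 0 in cecum allows up to 221 CPM. The ratio was 6.08 (3.90 to 10.0), or 4.54 on the log2 scale without small intestine and 1.85 without colon. Spp1, which encodes the secreted matrix protein osteopontin, stood at 89.2 CPM in stomach and at 0 in the others, at least 5.19-fold higher with a floor of 3 counts over the summed intestine, but 1 member held 35.2% of its 71 UMIs. Rnase4, a secreted ribonuclease, stood at 177, 40.3, 0 and 34.6 CPM (5.16-fold, 2.31 to 14.3), and B4galt5, a galactosyltransferase, at 121, 13.4, 0 and 34.6 CPM (5.27-fold, 1.99 to 19.7). Ctla2b, a cysteine protease inhibitor, stood at 76.6, 13.4, 0 and 0 CPM, and was also 2.37 higher on the log2 scale among Cd3 barcodes of the stomach. Mcpt2, a mast cell protease, stood at 119, 0, 0 and 0 CPM, and among Cd3 barcodes it was 4.21 higher on the log2 scale in stomach. Without small intestine or without colon the log2 ratios were 1.36 and 2.75 for Ctla2b, and as lower bounds 1.58 and 1.39 for Spp1 and no lower than 1.81 for Mcpt2. B4galt5 stood at 3.41 without colon.

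The other 6 of the 12 highest rested on few intestinal UMIs. Mob3a, Cpne3, Ttc5, Pdcd2l, Abraxas2 and Ldlrad4 stood at 50.3 to 72.9 CPM in stomach members and at 1 or 2 UMIs over all intestinal members. Without the small intestine library none of these 6 was called, with log2 ratios of 0.89 for Mob3a, 0.82 for Cpne3, 2.33 for Ttc5, 1.87 for Pdcd2l and 0.98 for both Abraxas2 and Ldlrad4. Without the colon library 5 of the 6 were not called, at 2.28 for Mob3a, 2.22 for Cpne3, 0.56 for Ttc5 and 1.38 for both Abraxas2 and Ldlrad4, and Pdcd2l remained called at 1.10. Mob3a, Cpne3, Ttc5, Pdcd2l and Abraxas2 differed by -0.26 to 0.36 on the log2 scale among Cd3 barcodes.

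Of the 12 genes furthest below the intestinal level, the highest in intestinal members was Apol7c, an apolipoprotein L gene. It had 0 UMIs in stomach members and 1222, 1179 and 92.3 CPM in the others, at least 175-fold lower in stomach with the floor of 3 counts. In the stomach Fn1 and Retnla cells and the Cd3 barcodes of the stomach it was at 0 as well. Without small intestine the bound on its log2 ratio was -5.99 and without colon -8.33. Il1r2, the decoy receptor for IL-1, stood at 13.8, 376, 516 and 335 CPM, 26.5-fold lower in stomach (13.9 to 55.7), and was 1.52 higher on the log2 scale in Cd3 barcodes of the stomach. Gbp2b, an interferon-induced guanylate binding protein, stood at 6.28, 779, 295 and 57.7 CPM, and Jaml, a junctional adhesion receptor of leukocytes, at 6.28, 443, 73.7 and 92.3 CPM. Ocstamp, needed for fusion of osteoclasts, stood at 8.79, 161, 73.7 and 104 CPM, and the transporter gene Slco3a1 at 11.3, 282, 147 and 46.2 CPM.

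Some of these low values were shared by T cells. Scand1 was 66.1-fold lower in stomach members (24.5 to 251), and among Cd3 barcodes its log2 ratio was -5.02. Taf10, a subunit of the basal transcription machinery, was 22.8-fold lower, Tmem160 14.6-fold, Hic1 22.8-fold and Grasp 25.4-fold, with log2 ratios of -5.14, -3.41, -2.65 and -2.81 among Cd3 barcodes. Gpr171 was 17.3-fold lower, from 5 stomach and 19 intestinal UMIs, and its ratio among Cd3 barcodes was -0.42. Leaving out a library put several of the 12 under the minimum of 20 UMIs while the ratios remained below the intestinal level. Without small intestine this held for Gbp2b (-3.84), Jaml (-3.84), Gpr171 (-4.13), Hic1 (-4.16), Ocstamp (-3.50) and Slco3a1 (-2.40), without colon for Gpr171 (-4.18), Grasp (-3.69) and Taf10 (-3.76), and without cecum for Hic1 (-4.21), all as log2 ratios. Among those still called, Grasp stood at -5.39 without small intestine, and without colon Gbp2b stood at -6.81, Jaml at -5.94, Hic1 at -5.18 and Slco3a1 at -4.53.

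**Figure D3:**
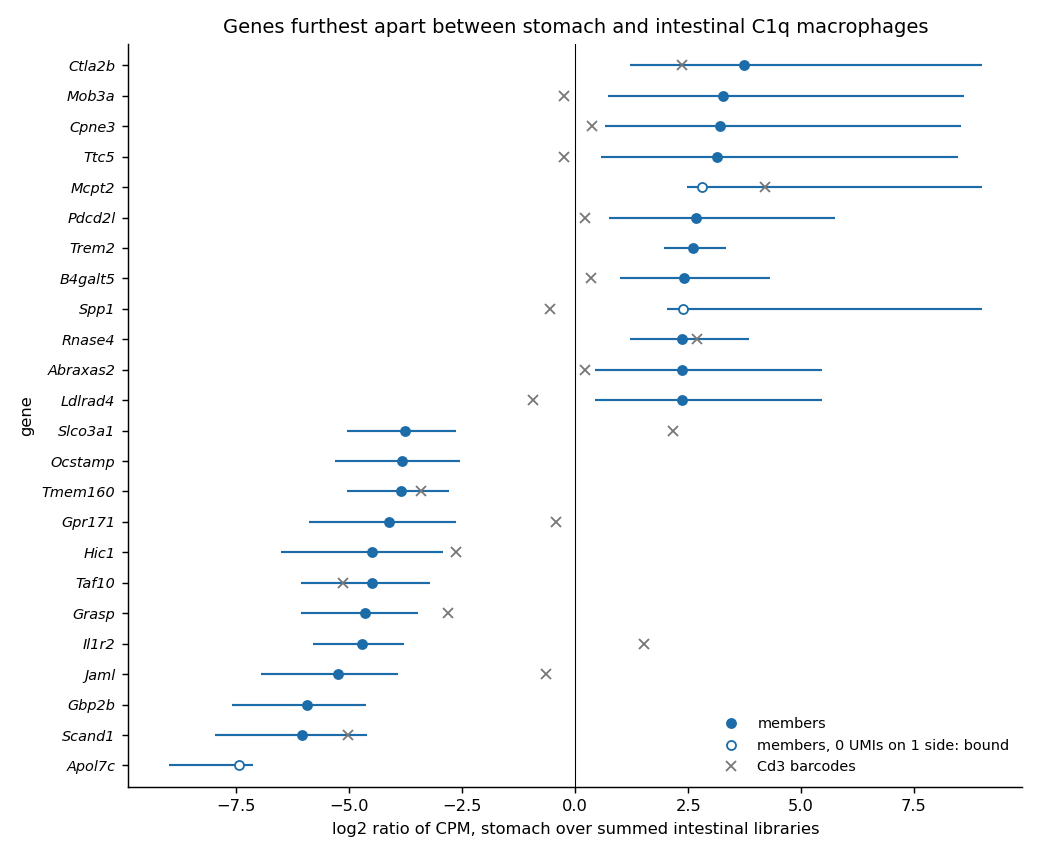
Log2 ratio of CPM in stomach over summed intestinal libraries for the 12 genes furthest above and the 12 furthest below, in C1q macrophages (circles with exact 95% intervals, lines cut at 9 in either direction) and in Cd3 barcodes (crosses, drawn for genes with a stomach UMI and at least 20 UMIs there). Open circles are bounds where 1 side had 0 UMIs. Scand1, Taf10 and Tmem160 are low in both cell classes, while Il1r2 is low in members and above 0 in Cd3 barcodes.

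Genes of lipid handling were often higher in stomach members. Of 16 such genes tested, 6 were higher and 1 lower, at a median log2 ratio of 0.60 against -0.08 over all genes. Among Cd3 barcodes the median of the same genes was higher still, at 0.77 against 0.04 over all genes tested. Only 1 of the calls of the list was also made in that direction among Cd3 barcodes. Cd3 barcodes of the stomach also held more macrophage transcripts. Of them 3.93% had a C1q UMI, against 0.159% to 0.179% in the other libraries. The markers C1qa, C1qc, Apoe, Ms4a7, Trem2 and Csf1r had a median log2 ratio of 4.30 among Cd3 barcodes. Whether the shift of the lipid list was particular to members was not tested. Over all genes 4.38% were higher and 10.0% lower, and the counts of each list below stand beside those same shares. Beside Trem2 and Spp1 the 6 were Cd63, Cd9, Abca1 and Cd36. Cd63, a tetraspanin of late endosomes, stood at 1271, 792, 0 and 92.3 CPM, a ratio of 3.32 (2.59 to 4.31). Stomach and small intestine were high and the other 2 libraries low. Abca1, the pump that loads cholesterol onto apolipoproteins, stood at 232, 107, 147 and 23.1 CPM (3.38-fold, 1.89 to 6.67), and Cd36, a scavenger receptor for oxidized lipid, at 163, 94.0, 0 and 11.5 CPM (3.57-fold, 1.76 to 8.44). Cd9 was near the limit at 2.02-fold (1.54 to 2.70). Without small intestine the log2 ratios of Abca1, Cd36 and Cd63 were 2.54, 4.03 and 3.99, and without colon that of Abca1 was 1.03. Without colon Cd63 stood at a log2 ratio of 0.92 and Cd36 at 1.04, and neither was called, and Cd9 was not called without small intestine (0.83) or without cecum (0.90). Msr1, a scavenger receptor, was the 1 lower gene, at 37.7, 188, 0 and 11.5 CPM, and without small intestine its log2 ratio turned to 1.92 from 1 intestinal UMI (-2.08 without colon).

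Lysosomal genes moved less. Of 24 tested, 4 were higher, among them Cst3, Ctsd and Gusb, and 1 lower (Lamp1), where the median log2 ratio was 0.34. Among Cd3 barcodes the median of the same genes was 0.56, and 3 of these calls were made there in the same direction. Cst3, the secreted protease inhibitor cystatin C, stood at 523, 255, 73.7 and 127 CPM (2.95-fold, 2.04 to 4.39), and the protease gene Ctsd at 970, 631, 368 and 173 CPM (2.53-fold). Without small intestine the log2 ratio of Ctsd was 2.28. Without colon Ctsd (0.72) and Gusb (0.70) were not called on the log2 scale. Lamp1, a lysosomal membrane protein, stood at 367, 766, 1326 and 762 CPM, 2.20-fold lower in stomach, with a log2 ratio of -1.41 among Cd3 barcodes.

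Genes that tell recent monocyte origin from long residence differed among the libraries in a pattern of their own. Ccr2, the receptor that brings monocytes out of the bone marrow, stood at 293, 26.9, 1105 and 877 CPM, the second from 2 UMIs. A UMI of it was seen in 34.1%, 9.09%, 100% and 100% of members, and after thinning to 1000 UMIs per cell in 13.4%, 0%, 66.7% and 53.8%. Cecum and colon were high, small intestine low and stomach between. Cd3 barcodes of the stomach held Ccr2 too, at 262 CPM, where 18.2% had a UMI after the same thinning at medians of 2611.5 UMIs against 4493 in members. In the other libraries 0.240% to 0.834% of Cd3 barcodes had one. The log2 ratio of Ccr2 was -0.86 and not called, -1.63 without small intestine and 0.60 without colon. S100a6, a calcium-binding protein abundant in monocytes, followed with 151, 26.9, 516 and 877 CPM, and its call as 3.23-fold lower in stomach turned to a log2 ratio of 0.56 without the colon library (-2.46 without small intestine). Cd3 barcodes of the stomach held S100a6 at 2181 CPM. Timd4, a phosphatidylserine receptor of long-lived resident macrophages, was seen mainly in small intestine members, with 18 UMIs in 45.5% of the 22, against 1 UMI in stomach, and it was not listed in cecum or colon.

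Of other genes known from long-lived or organ-resident macrophages, some were near 0 in stomach members and some were not. Lyve1 and Cd163 had 0 UMIs, which allows up to 3.77 CPM, and Folr2 had 3 UMIs. Vcam1, an adhesion molecule also found on some macrophages, stood at 170 and 53.7 CPM in the first 2 libraries and was not listed in cecum or colon. Tmem119, best known from microglia, stood at 261, 161, 0 and 254 CPM, and Spic, a transcription factor of macrophages that recycle heme, at 55.3 CPM in stomach, its only listed library. Of the monocyte list 8 genes were tested between stomach and intestine, with 1 higher (Lyz1) and 3 lower (S100a6, Gpr141 and Treml4). Lyz1 stood at 280, 94.0, 0 and 80.8 CPM, and when the rule was applied after thinning its log2 ratio turned to -0.30.

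In TGF-beta signalling the ligand and the feedback inhibitor were lower in stomach. Of 14 IL-10 and TGF-beta genes tested, 0 were higher and 3 lower, at a median log2 ratio of 0.06. Tgfb1, the ligand, stood at 111, 497, 663 and 727 CPM, 5.64-fold lower in stomach (4.22 to 7.56), with a log2 ratio of -0.93 among Cd3 barcodes. Smad7, the feedback inhibitor of the pathway, stood at 60.3, 201, 516 and 519 CPM, a ratio of 0.157 (0.106 to 0.231), with a log2 ratio of -1.75 among Cd3 barcodes and of -2.05 in members without colon. Smad2, a signal transducer, was the third, and without small intestine it was not called (-1.33). The receptor gene Tgfbr1 ran the other way without being called, at 716, 416, 221 and 565 CPM, as did the target gene Pmepa1 at 699, 470, 295 and 300 CPM. Il10ra, the IL-10 receptor chain that lets gut macrophages stay quiescent, stood at 295, 363, 516 and 415 CPM, and Il10 itself had UMIs in stomach members only, at 42.7 CPM.

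The machinery of antigen presentation was high in every library. The invariant chain gene Cd74 stood at 46182, 30451, 36243 and 45046 CPM, and the class II chain gene H2-Aa at 18825, 11014, 15691 and 17388 CPM. Stomach and colon were highest and small intestine lowest, within a range under 2-fold. Of 9 class II and costimulation genes tested 1 was higher in stomach (Cd86) and 2 lower (Ciita and H2-DMb2), where the median log2 ratio was 0.22. Cd86, a ligand of CD28, stood at 220, 107, 221 and 46.2 CPM, and without colon neither Cd86 (0.82) nor H2-DMb2 (-1.03) was called. Ciita, the master regulator of class II genes, stood at 107, 188, 368 and 277 CPM, a ratio of 0.434 (0.297 to 0.642).

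Of 9 cytokine and growth factor genes tested 2 were higher in stomach members (Tnf and Osm) and 2 lower (Tgfb1 and Ptgs1), with the list's median log2 ratio at -0.14. Of 8 chemokine genes 1 was higher (Ccl9) and 0 lower, and Ccl9 was also called higher in stomach among Cd3 barcodes. Ptgs1, a cyclooxygenase, stood at 133, 752, 147 and 104 CPM, and without small intestine its log2 ratio turned to 0.28. Tnf stood at 471, 309, 368 and 34.6 CPM (2.65-fold, 1.84 to 3.96), and without the low colon library its log2 ratio was 0.57 and not called (2.56 without small intestine). Osm, a cytokine that acts on stroma and epithelium, stood at 212, 53.7, 0 and 80.8 CPM (3.37-fold, 1.84 to 6.88), and the chemokine gene Ccl9 at 351, 53.7, 0 and 196 CPM (2.92-fold, 1.87 to 4.79, and 2.95 on the log2 scale without colon). Il1b was highest in cecum, at 3097, 1504, 8692 and 4212 CPM. In the small intestine alone, Cxcl9, a chemokine induced by interferon gamma, stood at 591 CPM against 3.77 in stomach, and was not listed in cecum or colon. Isg15, Rsad2 and Gbp7 of the interferon response were highest there too, at 739, 336 and 336 CPM against 131, 51.5 and 30.2 in stomach. Of 19 interferon response genes tested 1 was higher in stomach and 4 were lower, at a median log2 ratio of -0.24. Without small intestine Isg15 turned to 1.71 (-2.26 without colon) and Gbp7 was not called at -0.99 (-3.24 without colon).

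Of 33 tested genes of immediate early response and tissue dissociation, which include heat shock genes, 9 were lower in stomach and 0 higher, at a median log2 ratio of -0.12. The 9 were Jun, Jund, Egr1, Ier2, Ier5, Klf2, Klf4, Dusp2 and Hspb1. The whole list summed to 56855, 85039, 92670 and 50492 CPM, so that colon, not stomach, was lowest. Jun stood at 2215, 8812, 5156 and 4696 CPM and Klf2 at 396, 2901, 5598 and 1246 CPM. Klf2 was 5.79-fold lower in stomach (4.98 to 6.73), with a log2 ratio of -0.97 among Cd3 barcodes. Jund was 8.29-fold lower and, of the macrophage identity list, Cebpb 10.6-fold lower, but their log2 ratios among Cd3 barcodes were -2.53 and -3.21. The heat shock gene Hspa1a was higher in stomach than in the summed intestine without being called, at 8092, 9429, 3610 and 3058 CPM. Its level was highest in small intestine, and among Cd3 barcodes it was 2.19 higher on the log2 scale in stomach. Hmox1, the heme-degrading enzyme, stood at 416, 1813, 1473 and 265 CPM, high in small intestine and cecum, and its call was lost without small intestine (-0.04, against -2.08 without colon).

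The other lists gave few calls between stomach and intestine. Of 26 macrophage identity genes tested, 2 were higher (Cd14 and Ms4a7) and 2 lower, among them Cebpb, where the median log2 ratio was 0.13. Of 13 clearance receptor genes 2 were higher (Cd36 and Tlr2) and 2 lower (Msr1 and Tgm2). Of 10 glycolysis and hypoxia genes 0 were higher and 1 lower, of 7 chemokine receptor genes 0 were higher and 2 lower (Ccr1 and Cmklr1), and of 6 Fc receptor genes 1 was higher (Fcgrt). Of 6 complement genes 0 were higher and 1 lower (Cfp, the properdin gene). Fcgr1, the high-affinity IgG receptor whose promoter is shown above, stood at 249, 188, 73.7 and 208 CPM.

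Stomach members were next set beside the 108 Fn1 and Retnla cells of the stomach, the other side of the limit in the rule. This contrast is partly the rule itself, so the values are a description. Of the 108 cells, 32 also had 3 or more C1q UMIs. Of 3865 genes tested, 405 were called higher in members (10.5%) and 648 lower (16.8%), where the median log2 ratio was -0.28. When that median was scaled to 0, 612 were higher and 454 lower. The 12 genes furthest above were Ch25h, Mmp13, Ccl5, Vcam1, Cd72, Zmynd15, Olfml3, Lhfpl2, Lilra5, Hebp1, Gpr34 and F11r. Olfml3, a secreted matrix protein, stood at 354 CPM against 10.7 (33.2-fold, 15.9 to 83.4), Cd72, an inhibitory lectin, at 446 against 9.14 (48.8-fold, 22.2 to 134), and Zmynd15 at 428 against 10.7. Ch25h, which makes the oxysterol 25-hydroxycholesterol, had 94 UMIs against 1 (ratio 77.5, 13.6 to 3093), and Mmp13, a collagenase, 152 against 2. Of the 211 Ccl5 UMIs 1 member held 66.8%.

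Below the Fn1 and Retnla cells were, beside those 2 genes of the rule, Ifitm6, F10, Chil3, Gfra2, Il6, Hp, Fgfr1, Lilra6, Slpi and Tmem154. Ifitm6 stood at 2.51 CPM in members against 524, Chil3, a chitinase-like lectin, at 3.77 against 511 and Il6 at 1.26 against 140. Of 16 monocyte list genes tested, 0 were higher and 16 lower, at a median log2 ratio of -4.56, and Fn1 and Retnla were among them. Ccr2 stood at 293 CPM in members against 1489, S100a4 at 99.3 against 2591, and Lyz1 at 280 against 5174. Of 11 genes of alternative activation 9 were lower, again counting Fn1 and Retnla, with the mannose receptor gene Mrc1 at 158 CPM against 559. Of 12 glycolysis and hypoxia genes 7 were lower, Hif1a at 82.9 CPM against 261 and Pkm at 337 against 808.

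Among the lists with more genes higher than lower in members were IL-10 and TGF-beta signalling, lysosome, lipid handling and class II. Of 14 IL-10 and TGF-beta genes tested 7 were higher and 3 lower (Stat3, Bcl3 and Nfil3), at a median log2 ratio of 0.96. Tgfbr1 stood at 716 CPM against 54.9 (13.1-fold, 9.32 to 18.8), Pmepa1 at 699 against 47.2 and Hpgds, a prostaglandin D synthase, at 313 against 22.9. Of 24 lysosomal genes 10 were higher and 0 lower, with Lgmn, the protease legumain, at 1549 CPM against 290. Of 19 lipid handling genes 8 were higher and 2 lower, the lower ones being Lpl (132 CPM against 1414) and Fabp5. Of 9 class II and costimulation genes 5 were higher, with Cd74 at 46182 CPM against 22485, though 0.94 on the log2 scale and not called when the rule was applied after thinning. Of 8 tested genes known from resident macrophages of other organs 5 were higher, among them Tmem119, Gpr34, Spic and Vcam1, and 3 lower (Lyve1, Cd163 and Mrc1).

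Chemokine genes split by ligand. Of 12 tested 4 were higher in members and 5 lower. Cxcl16, a membrane-bound chemokine, stood at 1338 CPM against 120, Ccl4 at 2690 against 573, Ccl3 at 1346 against 523 and Ccl12 at 156 against 18.3. Ccl2, the main ligand of Ccr2, ran the other way at 90.5 against 1391, as did Ccl6 at 222 against 3554, Ccl9 at 351 against 1987 and Ccl7 at 42.7 against 376. Cxcl2 stood at 3372 against 6757. Of 15 cytokine and growth factor genes 5 were higher (Il1a, Tnf, Igf1, Pdgfa and Pdgfb) and 4 lower (Il1rn, Il6, Areg and Ptgs2). Pdgfb stood at 263 CPM against 21.3 and Ptgs2 at 51.5 against 122. Of 32 immediate early and dissociation genes 9 were higher, all of them heat shock or chaperone genes such as Hspa1a (8092 against 1509) and Dnajb1 (2253 against 381). The 7 lower ones were Jund, Egr1, Egr2, Ier3, Klf2, Klf4 and Nr4a1, and the list's median log2 ratio was 0.19.

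The sign of these differences was mostly the same in the other libraries, where the same rule split the cells. Of genes called higher in stomach and tested elsewhere, 132 of 150 (88.0%) were higher in small intestine members, 143 of 173 (82.7%) in colon and 22 of 27 (81.5%) in cecum. Of those called lower, 170 of 193 (88.1%) were lower in small intestine, 291 of 330 (88.2%) in colon and 35 of 43 (81.4%) in cecum. Of all genes tested in both libraries, called or not, 36.5% were higher and 63.5% lower in small intestine members, 39.0% and 61.0% in colon, and 47.0% and 53.0% in cecum. Axl, a receptor for dying cells, stood at 642 CPM against 94.5 in stomach, 551 against 175 for small intestine, 516 against 62.4 for cecum and 692 against 169 for colon. The cecum values came from 7 UMIs against 1, under the minimum for testing. Cd63 did not follow in colon, at 92.3 CPM in members against 119.

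**Figure D4:**
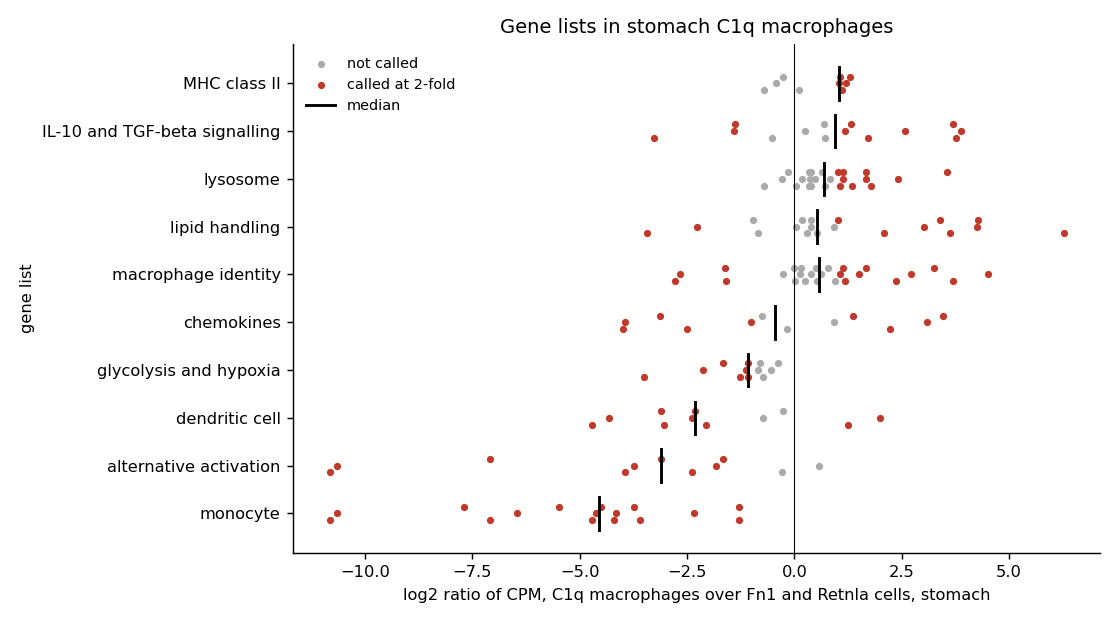
Log2 ratio of CPM of each tested gene of 10 gene lists, C1q macrophages over Fn1 and Retnla cells of the stomach library. Red points were called at 2-fold, grey points were not, and black bars are list medians; all 16 monocyte genes lie below 0 and the class II median lies at 1.04.

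Against all other stomach barcodes, of which 1805 had 3 or more Cpa3 UMIs, 654 of 3985 genes were called higher (16.4%) and 769 lower (19.3%). The 20 furthest above were Vcam1, Tmem119, Zmynd15, Olfml3, Prkar1b, Lilra5, Mmp13, Spic, Ms4a7, Trem2, Ms4a14, H2-M2, Stab1, Apoe, C1qa, Mmp14, Ch25h, C1qc, F11r and Ccl12. This list also describes the rule. Stab1, a scavenger receptor for dying cells, stood at 264, 349, 147 and 92.3 CPM, and Mmp14, a membrane-bound matrix protease, at 141, 349, 147 and 242 CPM. Mmp13 was highest in small intestine, at 1343 CPM against 191 in stomach, and was seen in 68.2% and 20.2% of members.

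Among stomach members Apoe, several chemokine and stress genes, Malat1, Fth1 and Cd74 had the highest ratios of variance to mean. After thinning 172 members to 1000 UMIs each, the median ratio of variance to mean over 677 genes with a mean of 0.2 or more was 1.13, where counting alone gives 1, and 76 genes were above 2. Csf1r (1.07) and the lipid handling genes Trem2 (1.32) and Abca1 (1.22) were near the median, and C1qa was at 3.11. For a gene that differs between cells this ratio rises with the mean. The mean was 36.2 UMIs for Apoe and 45.9 for Cd74, but 0.645 for Trem2 and 0.233 for Abca1. The ratios therefore do not show that Trem2 or Abca1 was more even over members than Apoe or Cd74. The 15 genes with the highest ratio were Ccl5, Malat1, Apoe, Ccl4, Hspa1a, Cxcl2, Klf2, Fth1, Cd74, Il1b, Lyz2, Fos, Dnajb1, Atf3 and Rgs1. Apoe ran from 0 to 96 UMIs per 1000 with a median of 34 (ratio 13.4), Il1b from 0 to 20 with a median of 1 (7.17) and Hspa1a from 0 to 37 with a median of 5 (8.65). Ccl5 led through a few cells, with a UMI in 3.49% and a highest count of 26.

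Some of these genes varied together over the 172 members, which share a library, a depth and the constraint of a fixed total. Spearman's rho is given here as a description. Apoe ran with Ms4a7 (0.48) and Fcrls (0.43), and against S100a6 (-0.42), Il1b (-0.36) and Cxcl2 (-0.33). S100a6, with a UMI in 8.72% of members, ran with S100a4 (0.48). Il1b and Cxcl2 ran together (0.42), as did Fos and Atf3 (0.64), Hspa1a and Dnajb1 (0.55), and Cd74 and H2-Aa (0.72). Malat1, a nuclear RNA, ran against Fth1 (-0.43) and Cd74 (-0.39).

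**Figure D5:**
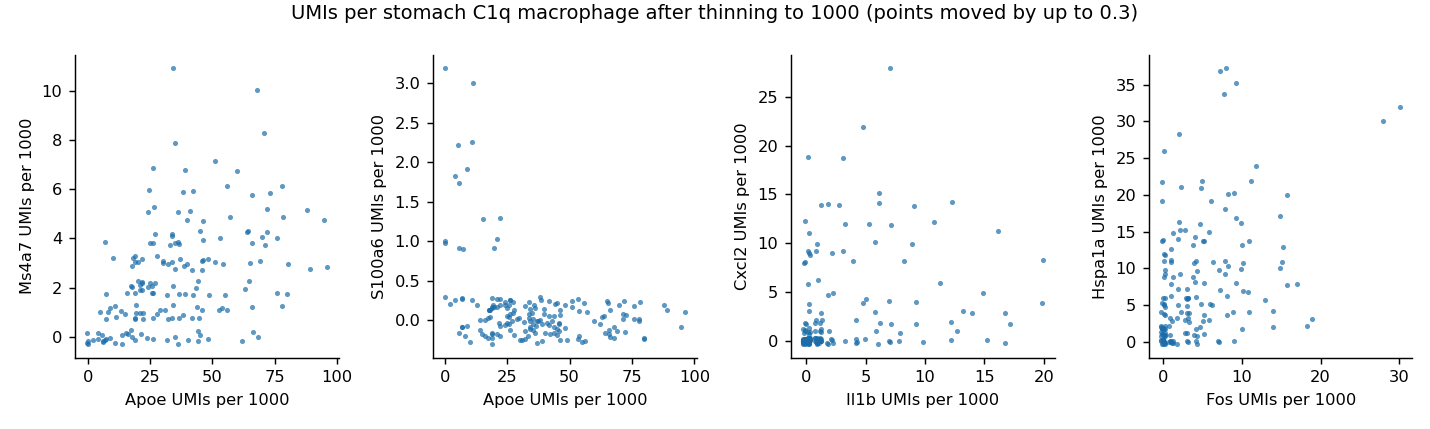
UMIs per stomach member after thinning to 1000, for Ms4a7 against Apoe, S100a6 against Apoe, Cxcl2 against Il1b and Hspa1a against Fos; each point is 1 of 172 members, moved by up to 0.3 to show ties. Members with an S100a6 UMI lie at the low end of Apoe, and members with few Apoe UMIs had few of Ms4a7.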

How the data were processed

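The authors deposited 10x matrices of whole-number UMI counts per gene and barcode, not normalized. Per the submitters' processing notes they used Cell Ranger, Seurat 3.0.0 and GRCm38 (mm10). Members and gene lists were chosen with earlier results of these data known.

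From the deposited counts, members were found by the rule, their UMIs summed per library and given as CPM with exact Poisson intervals. Shares have Clopper-Pearson intervals and ratios exact conditional binomial ones, at 95%. Tested genes reached 50 CPM on either side and 20 UMIs, and calls needed 2-fold with an interval off 1. A count of 0 was replaced by a floor of 3. Thinning drew 1000 UMIs per cell (seed 1) and left out shallower cells, which kept 172, 22, 3 and 13 members. Ribosomal, mitochondrial and unnamed genes were passed over. Named were the marker and rule genes, the 12 furthest above and below in each contrast (20 against all other barcodes), the 15 most variable with a mean of 0.2 or more, and list members. The 29 lists held 460 genes. Python 3.11.15, numpy 2.4.6, scipy 1.17.1 and pandas 2.3.3 were used. The ratio was tested on simulated Poisson counts of summed UMIs, which held no spread between cells. Alternatives were other rules, minima, scalings and left-out libraries.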

Additional observations from a re-analysis of the deposited data

How the results depend on the processing

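Each library was 1 sample, so no spread between animals could be given. The intervals of gene levels and ratios also leave out the spread between members and are too narrow for genes that vary among them. For Apoe in stomach members the ratio of variance to mean was 13.4 after thinning. The cecum rests on 4 members and the colon on 13, and a count of 0 allows up to 221 CPM in cecum, 40.3 in small intestine and 34.6 in colon. No paired analysis was possible because each tissue had 1 library and no replicate number joined them. The 4 shares stayed inside their intervals in all 8 other rules except in stomach, which was 6.71% among barcodes as deep as the small intestine library (at least 1581 UMIs) and 6.41% with no limit on Fn1 and Retnla. Calls between stomach and intestine rose to 267 higher and 492 lower at 1.5-fold and 266 higher and 518 lower with the 3 libraries weighted equally. Without 1 intestinal library they were 165 to 210 higher and 346 to 364 lower. Against Fn1 and Retnla cells they were 612 higher with the median ratio scaled to 0, 609 higher and 1151 lower at 1.5-fold, 830 higher and 1151 lower at 5 UMIs and 10 CPM, and 830 higher and 1190 lower with no minimum. As the mean over members, Apoe stood at 36237 CPM in stomach. Directions of called ratios turned, on the log2 scale, for Lyz1 when the rule followed thinning (-0.30), Ccl5 with no limit on Cd3 (-0.43), Isg15 (1.71), Msr1 (1.92) and Ptgs1 (0.28) without small intestine (-2.26, -2.08 and -2.31 without colon), and S100a6 (0.56) without colon (-2.46 without small intestine). The ratio of Ccr2, not called at -0.86, turned to 0.60 without colon. In all, 1832 of 1932 gene ratios under another setting stayed on their side of the limit. Alternatives chosen after seeing the data gave 91 higher and 174 lower when a gene also had to exceed the Cd3 barcode ratio by 2-fold, and 173 higher and 379 lower with symbols listed in any library. The cause of each change was not tested.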
